A study of Mus musculus with 4 samples.

Results

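The regions described here are wide stretches of open chromatin that were called in all 4 lung tumour libraries of the study and lie at an end of a protein-coding gene. A merged region, which joins the overlapping peaks of the libraries, was taken if it lay on an autosome, overlapped a peak of every library by 1 bp or more, was 1500 bp or wider, and overlapped the 2 kb on either side of an end of a RefSeq protein-coding gene. This gave 1267 regions out of 61972 merged regions. Of the 26402 autosomal regions shared by the 4 libraries, 10766 (40.8%) lay at a gene end, and the 1267 wide ones were 11.8% of those and 4.80% of the shared regions. The other 9499 shared gene-end regions, narrower than 1500 bp, serve as the comparison. Width, presence in every library and position chose the regions, so these are described and not tested.

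Open chromatin was mapped in dissected mouse lung tumours by ATAC-seq, an assay that uses a transposase to tag DNA that proteins leave exposed. There were 2 KrasLA1;Dicer1S2D tumour samples (KrasLA1/+ with Dicer1S2D/+, called Dicer1S2D tumours from here on) and 2 KrasLA1 tumour samples (KrasLA1/+ without the Dicer1 allele). Every sample came from 1 mouse of the C57B6J strain aged 55 weeks, replicate 1 being female and replicate 2 male in both genotypes, and 40 to 50 mg of tissue was used. KrasLA1 was present in the 4 mice alike and is an oncogenic allele that lies silent until spontaneous recombination turns it on in scattered cells, and the S2D allele of Dicer1 replaces serines with aspartates to mimic phosphorylation. A dissected tumour also holds blood vessels, immune cells and stroma, so a region open in fewer cells and a region less open in each cell cannot be told apart.

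Accessible DNA at a promoter usually spans the stretch that is free of nucleosomes around the transcription start, and most genes that many cells use have a rather narrow one. Wider accessible stretches arise where a promoter and nearby enhancers or alternative starts lie side by side, where nucleosomes downstream of the start are loose, or where neighbouring genes share a promoter. Genes that respond at once to growth factor signals, such as those of the AP-1 factors, and genes that define a cell's identity are known for broad open promoters. In lung tumours driven by this allele, the MAPK pathway runs strongly, AP-1 and MAPK feedback genes are its direct targets, and NKX2-1 is the factor that holds lung epithelial identity.

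The promoters of 5 genes on which the results turn are shown here because each lies inside a wide region and shows what such a region holds. Each is the RefSeq promoter on GRCm38.p6 (the primary assembly of mm10), 250 bases before and 50 bases after the start, written 5′ to 3′ on the strand of the gene. Capitals mark matches on either strand to TATAAA, the usual form of the core promoter element, to GGGCGG, the GC box that SP and KLF factors bind, and to CCAAT, which the factor NF-Y binds.
Jun promoter, chr4:95052173-95052472, minus strand: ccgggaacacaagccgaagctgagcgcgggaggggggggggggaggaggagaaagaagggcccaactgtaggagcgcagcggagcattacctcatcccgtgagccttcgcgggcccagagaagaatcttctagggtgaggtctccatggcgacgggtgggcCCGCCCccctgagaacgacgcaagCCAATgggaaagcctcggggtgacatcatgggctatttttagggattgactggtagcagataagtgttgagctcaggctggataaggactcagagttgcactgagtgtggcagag
Gadd45g promoter, chr13:51846425-51846724, plus strand: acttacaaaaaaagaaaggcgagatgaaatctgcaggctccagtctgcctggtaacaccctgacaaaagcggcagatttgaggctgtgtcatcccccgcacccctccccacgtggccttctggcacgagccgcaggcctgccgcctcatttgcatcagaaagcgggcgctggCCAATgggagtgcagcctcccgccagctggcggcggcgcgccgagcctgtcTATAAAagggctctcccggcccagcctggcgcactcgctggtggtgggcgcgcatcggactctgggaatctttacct
Nkx2-1 promoter, chr12:56536859-56537158, minus strand: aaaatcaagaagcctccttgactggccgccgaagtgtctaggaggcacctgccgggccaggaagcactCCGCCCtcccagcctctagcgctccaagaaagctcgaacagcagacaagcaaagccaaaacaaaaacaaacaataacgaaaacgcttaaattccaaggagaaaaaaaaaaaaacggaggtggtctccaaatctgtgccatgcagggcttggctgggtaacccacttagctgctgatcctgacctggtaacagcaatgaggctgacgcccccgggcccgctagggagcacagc
Dusp6 promoter, chr10:99262981-99263280, plus strand: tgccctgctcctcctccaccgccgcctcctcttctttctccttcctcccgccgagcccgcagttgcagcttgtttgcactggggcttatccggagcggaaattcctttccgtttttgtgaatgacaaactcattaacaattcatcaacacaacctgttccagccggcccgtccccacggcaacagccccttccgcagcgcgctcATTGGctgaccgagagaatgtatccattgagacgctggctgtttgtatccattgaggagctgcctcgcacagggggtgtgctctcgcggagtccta
Spred1 promoter, chr2:117120821-117121120, plus strand: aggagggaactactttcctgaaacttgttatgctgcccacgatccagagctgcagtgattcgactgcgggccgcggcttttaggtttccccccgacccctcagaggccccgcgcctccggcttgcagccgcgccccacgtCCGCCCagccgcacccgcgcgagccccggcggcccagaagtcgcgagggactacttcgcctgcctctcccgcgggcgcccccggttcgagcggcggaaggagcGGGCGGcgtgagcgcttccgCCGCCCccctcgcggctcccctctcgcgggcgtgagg
The Jun promoter held 1 GC box and 1 CCAAT box, and the region around it reached 1715 bp upstream and 2131 bp downstream of the start. The Gadd45g promoter held 1 TATA box and 1 CCAAT box, with 1718 bp of region upstream and 1680 bp downstream. The Nkx2-1 promoter held 1 GC box, with 787 bp upstream and 2025 bp downstream. The Dusp6 promoter held 1 CCAAT box, with 1806 bp upstream and 672 bp downstream. The Spred1 promoter held 3 GC boxes, with 1498 bp upstream and 708 bp downstream.

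The libraries differed in how peaks were called. The numbers of peaks were 50282 and 34767 in the Dicer1S2D tumours and 41621 and 44654 in the KrasLA1 tumours, in the order replicate 1, replicate 2. The median peak width was 410 and 468 bp in the Dicer1S2D tumours and 453 and 534 bp in the KrasLA1 tumours. Peaks of 1500 bp or more made up 1.0% and 1.35% of the peaks of the Dicer1S2D tumours and 1.63% and 3.15% of those of the KrasLA1 tumours. KrasLA1 replicate 2 stood apart, with 1408 such peaks against 470 to 679 in the other libraries. The files hold peak positions without read counts, so the depth of the libraries is unknown and its part in these widths was not tested. When the regions were rebuilt without KrasLA1 replicate 2, 844 were wide, and results that rest on this library are given with and without it.

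The wide regions were 1730 bp wide at the median, with quartiles of 1596 and 1934 bp, and the widest measured 3847 bp. Most were not far above the minimum, since 248 reached 2000 bp, 42 reached 2500 bp and 7 reached 3000 bp. The narrower gene-end regions had a median of 909 bp (quartiles 715 and 1118 bp). Just inside the minimum were the regions at Dusp10 with 1700056E22Rik and at Deptor (1500 bp each), Kdm7a (1501 bp), Taldo1 (1502 bp) and Cdkn2aip (1502 bp). Just outside were those at Zhx1, Tdrd7 and Limd1 (1499 bp each), and at Ago2 and Ctdspl2 with Mageb3 (1498 bp each). On the autosomes the share of shared gene-end regions that were wide ran between 8.77% on chromosome 5 and 14.7% on chromosomes 6 and 12.

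The wide regions lay within 2 kb of an end of 1537 genes, which is 7.44% of the 20665 autosomal protein-coding genes and 13.7% of the 11257 that had any shared gene-end region. A single gene was reached by 998 regions, 2 genes by 255 and 3 genes by 14. The region at the histone genes H2ac20, H2ac21 and H2bc21 (2464 bp) was the widest of those with 3 genes, followed by those at Cdc42ep5, Leng8 and Leng9 (2156 bp), at Cuedc2, Fbxl15 and Psd (2118 bp), at Prpf8, Rilp and Scarf1 (2087 bp) and at Mical1, Ppil6 and Smpd2 (1979 bp). A further 13 genes had a wide region at more than 1 place: Arhgap39, Bad, Cdkn1b, Cuedc2, Hnrnpu, Ier2, Mettl9, S100a13, Slc38a7, Sos2, Spint1, Tspan11 and Vcpkmt. At Cdkn1b, the gene of the cell cycle inhibitor p27, 1 region of 1568 bp lay at the start and another of 2017 bp at the finish. Hairpins of microRNAs lay inside 13 of the wide regions, among them Mir2861 and Mir3960 in the 1605 bp region at Cdk9, the kinase of transcription elongation.

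Values of single regions are covered bases as called, before any centring of the libraries. On that scale Dicer1S2D tumours were narrower on average in 83.1% of the wide regions and in 73.1% of all shared regions. The widest region lay at Jun, which encodes a subunit of the transcription factor AP-1 (chr4:95050091-95053937, 3847 bp). Peaks covered 1905 and 2554 bp of it in the Dicer1S2D tumours, against 2993 and 3847 bp in the KrasLA1 tumours. Both Dicer1S2D tumours lay below both KrasLA1 tumours there. In 3 of the 4 libraries the region held 1 peak, which spanned it end to end only in KrasLA1 replicate 2. At Lasp1, the gene of an actin-binding adaptor, the region was 3457 bp wide and peaks covered 1285 and 1394 bp in the Dicer1S2D tumours, against 1588 and 3076 bp in the KrasLA1 tumours. KrasLA1 replicate 2 was far wider there than the other 3 libraries.

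At Gadd45g, a gene induced by stress and DNA damage (chr13:51844957-51848355, 3399 bp), covered bases were 1609 and 1119 in the Dicer1S2D tumours, against 2472 and 3394 in the KrasLA1 tumours. At Irs2, an adaptor of the insulin receptor (3088 bp), they were 1574 and 2178 in the Dicer1S2D tumours, against 2838 and 2619 in the KrasLA1 tumours. The groups did not overlap at Gadd45g. At Irs2 they did not overlap in covered bases but did after each library was centred on its median over all shared regions. At Adgrl2, which encodes an adhesion receptor of the latrophilin family (3339 bp), covered bases were 2095 and 1959 in the Dicer1S2D tumours and 1839 and 3078 in the KrasLA1 tumours, so that the groups overlapped.

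At Nkx2-1, the lung lineage factor (chr12:56534883-56537695, 2813 bp), peaks covered 1851 and 1449 bp in the Dicer1S2D tumours, against 2394 and 2764 bp in the KrasLA1 tumours. At Gprc5a, a retinoic acid-induced receptor gene of lung epithelium (2836 bp), they covered 1261 and 1002 bp in the Dicer1S2D tumours, against 2125 and 2563 bp in the KrasLA1 tumours. The regions at both lung genes were wider in each KrasLA1 tumour than in either Dicer1S2D tumour, an order that was common before centring. After each library was centred, both kept this order, which 17.1% of the wide regions and 10.8% of all shared regions had. The region at Epas1, which encodes the hypoxia factor HIF-2alpha, did not separate the groups, with 2894 and 1054 bp in the Dicer1S2D tumours and 1639 and 2576 bp in the KrasLA1 tumours.

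At H2-Aa, a class II histocompatibility gene of antigen-presenting cells (2772 bp), covered bases were 883 and 865 in the Dicer1S2D tumours and 297 and 2772 in the KrasLA1 tumours. At Cd74, which encodes the class II invariant chain and is active in alveolar type 2 cells as well (1917 bp), they were 439 and 603 in the Dicer1S2D tumours and 656 and 1917 in the KrasLA1 tumours. Both regions were wide through KrasLA1 replicate 2. Of 14 myeloid marker genes, 4 and 5 had a peak at an end in the Dicer1S2D tumours and 4 and 7 in the KrasLA1 tumours, and of 14 lymphocyte marker genes 3 and 4 had one in the Dicer1S2D tumours and 4 and 5 in the KrasLA1 tumours. The part of immune cells in these widths was not tested.

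The other regions among the 20 widest lay at Slc37a1 (a sugar phosphate carrier), at Ang with Rnase4 (secreted ribonucleases with a shared promoter), Tsc22d2, Wnk1 (a kinase that controls ion transport), Eva1a, Ssbp4, Rtkn, Tgif1 (a repressor of TGF-beta targets), Zmiz1 (a transcriptional coactivator), Sinhcaf (a subunit of the SIN3 histone deacetylase complex) and Atp13a3 (a polyamine transporter). Their widths lay between 2756 bp at Atp13a3 and 3141 bp at Slc37a1. At Sinhcaf the libraries were close, with 2718 and 2584 bp in the Dicer1S2D tumours and 2745 and 2736 bp in the KrasLA1 tumours. At Wnk1 they were 2147 and 2210 bp in the Dicer1S2D tumours, against 2580 and 2886 bp in the KrasLA1 tumours.

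**Figure D1:**
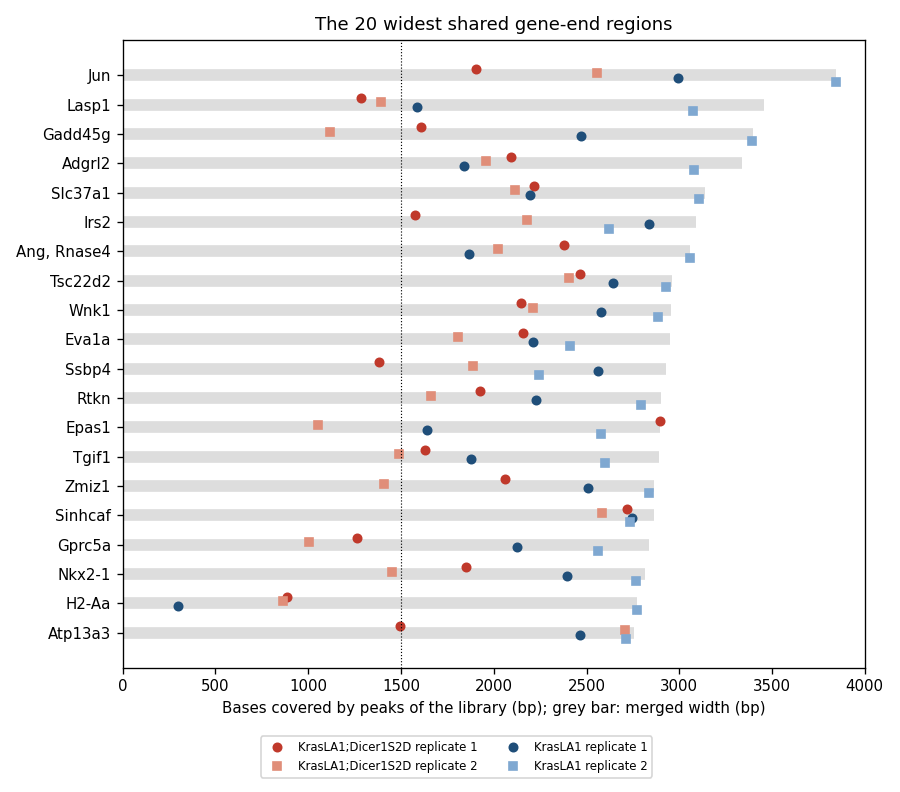
Bases covered by the peaks of each library (points, bp) in the 20 widest shared gene-end regions, with the merged width as a grey bar and a dotted line at 1500 bp. At most of the 20 regions, among them Jun, Gadd45g, Gprc5a, Nkx2-1 and Sinhcaf, both Dicer1S2D points lie left of both KrasLA1 points. The values are not centred, and at Sinhcaf the 4 libraries lie between 2584 and 2745 bp.

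A stricter group of 158 wide regions held a peak of 1500 bp or more in each of the 4 libraries. These touched 198 genes, which is 0.958% of the autosomal protein-coding genes. Ranked by the library in which the region was narrowest, the region shared by Gm20783 and LOC108167694 led (2378 and 2386 bp covered in the Dicer1S2D tumours, 2463 and 2454 bp in the KrasLA1 tumours). Foxq1, a forkhead factor of epithelia, followed with 2348 and 2320 bp in the Dicer1S2D tumours and 2405 and 2672 bp in the KrasLA1 tumours. Then came Man2a1, a mannosidase of the Golgi apparatus, with 2265 and 2325 bp in the Dicer1S2D tumours and 2261 and 2275 bp in the KrasLA1 tumours. The groups overlapped at Man2a1, and at Foxq1 they overlapped after the centring used for the genotype comparison (log2 difference 0.05).

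The same group held the regions at Hsp90ab1, Nfe2l2 and Spred1. Hsp90ab1, which encodes a cytosolic chaperone, had 2156 and 2175 bp covered in the Dicer1S2D tumours and 2022 and 2151 bp in the KrasLA1 tumours. Nfe2l2, which encodes the antioxidant factor NRF2, had 1903 and 1952 bp in the Dicer1S2D tumours and 1931 and 1959 bp in the KrasLA1 tumours. Spred1, which encodes an inhibitor of RAS signalling, had 1887 and 2128 bp in the Dicer1S2D tumours and 2202 and 2197 bp in the KrasLA1 tumours. The 4 libraries differed little at Hsp90ab1 and Nfe2l2, and at Spred1 Dicer1S2D replicate 1 was the narrowest in covered bases. After the centring the groups overlapped at Spred1 (log2 difference 0.03).

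Across the 1267 wide regions, the median covered width was 1393 and 1361 bp in the Dicer1S2D tumours and 1484 and 1639 bp in the KrasLA1 tumours. The means were 1377 ± 22.6 bp in the Dicer1S2D tumours and 1561.5 ± 109.6 bp in the KrasLA1 tumours (SD, n = 2 each), a difference of -184.5 bp. Both Dicer1S2D libraries lay below both KrasLA1 libraries. The widths helped to choose the regions, and 2 libraries against 2 cannot give an exact permutation p below 0.33, so no test is given. Over the narrower gene-end regions the medians were 729 and 694 bp in the Dicer1S2D tumours and 761 and 828 bp in the KrasLA1 tumours. Divided by the library's median over all shared regions, the wide regions were 2.28 and 2.42 times as wide in the Dicer1S2D tumours and 2.46 and 2.30 times in the KrasLA1 tumours, so that on this scale the groups overlapped.

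Unbroken width differed between libraries as well. The mean of the library medians differed by -241.5 bp (Dicer1S2D minus KrasLA1) for the widest single peak, beside -184.5 bp for covered bases. A wide region was split into 2 or more peaks in 391 (30.9%) and 256 (20.2%) cases in the Dicer1S2D tumours, and in 224 (17.7%) and 49 (3.87%) cases in the KrasLA1 tumours. It held 1 peak of 1500 bp or more in 381 (30.1%) and 350 (27.6%) cases in the Dicer1S2D tumours and in 526 (41.5%) and 958 (75.6%) cases in the KrasLA1 tumours. The mean share split was 25.5 ± 7.53% in the Dicer1S2D tumours and 10.8 ± 9.77% in the KrasLA1 tumours, and the mean share with a peak of 1500 bp or more was 28.8 ± 1.73% in the Dicer1S2D tumours and 58.6 ± 24.1% in the KrasLA1 tumours (SD, n = 2 each). The groups did not overlap in either measure, and KrasLA1 replicate 2 was the extreme library in both. In the 844 wide regions rebuilt without that library, 25.6% and 14.0% were split in the Dicer1S2D tumours and 11.0% in KrasLA1 replicate 1.

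KrasLA1 replicate 2 covered the most bases in 801 (63.2%) of the wide regions, against 145 (11.4%) and 62 (4.89%) for the Dicer1S2D tumours and 262 (20.7%) for KrasLA1 replicate 1. KrasLA1 replicate 2 also covered the most bases in 50.8% of the narrower gene-end regions and in 53.3% of all shared regions. A library's peaks covered a median of 78.9% and 77.8% of the region in the Dicer1S2D tumours, and 85.6% and 97.4% in the KrasLA1 tumours. Of the wide regions, 139 held no peak of 1500 bp or more in any library, 541 held one in 1 library, 245 in 2 libraries, 184 in 3 and 158 in 4. In 737 regions (58.2%) every library had 1 peak, against 95.8% of the narrower regions. In 10 regions every library was split, and in 520 some libraries were split and others whole.

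Where a library was split, the gaps were short. Their median length was 339 and 370 bp in the Dicer1S2D tumours and 312 and 271 bp in the KrasLA1 tumours. A place relative to the start could be given to 190 of 425 and 110 of 271 gaps in the Dicer1S2D tumours and to 91 of 240 and 19 of 49 gaps in the KrasLA1 tumours, in regions with 1 annotated start. Of these, 65.8% and 63.6% lay downstream of the start in the Dicer1S2D tumours and 56.0% and 68.4% in the KrasLA1 tumours. A gap lay over the start itself in 7.89% and 5.45% of cases in the Dicer1S2D tumours and in 9.89% and 10.5% in the KrasLA1 tumours. The regions themselves reach farther downstream than upstream, and the shares were not set against that layout.

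The ratio of the most to the fewest covered bases among the 4 libraries had a median of 1.394 in the wide regions and 1.35 in the narrower ones. It reached 2 or more in 200 wide regions (15.8%), in 13.8% of the narrower regions and in 22.7% of all shared regions. Across the wide regions, Spearman's rho of covered bases between libraries ran between 0.307 and 0.564, as a description of regions that share their libraries, against 0.770 to 0.809 in the narrower regions. The rule selects on width, and a limited spread of widths lowers rho, so nothing is read from this contrast.

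**Figure D2:**
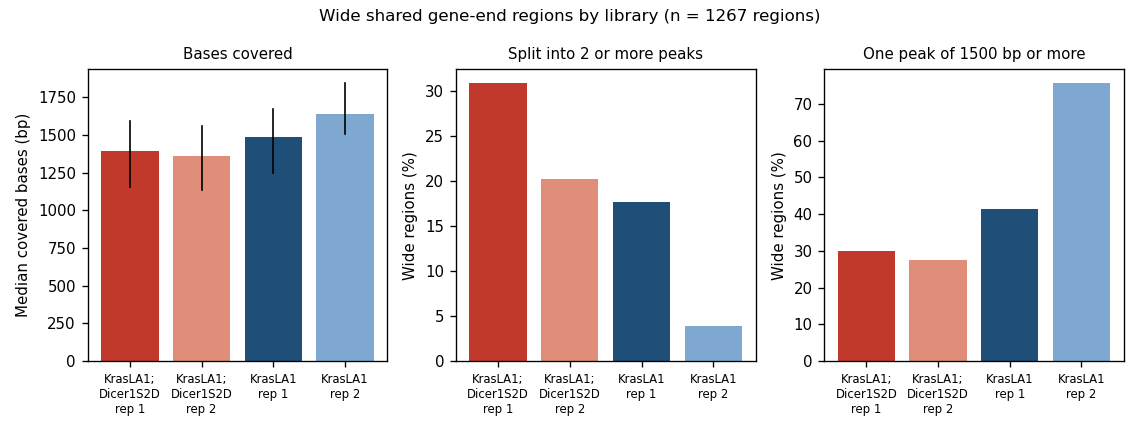
The 1267 wide regions in each library: median covered bases with quartiles as black lines (bp), the share split into 2 or more peaks (%), and the share with 1 peak of 1500 bp or more (%). Dicer1S2D tumours were split in 30.9% and 20.2% of the regions and KrasLA1 tumours in 17.7% and 3.87%.

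A RefSeq start lay inside 937 (74.0%) of the wide regions, against 65.2% of the narrower ones. Another 55 (4.34%) lay near a start without holding it, 32 (2.53%) lay at the finish of a gene, and for 243 (19.2%) the strand of a gene was not known from the promoter table. Among the narrower regions, 8.29% lay near a start and 6.68% at a finish. Without KrasLA1 replicate 2, 75.2% of the wide regions held a start. The widest at a finish lay at 9530003J23Rik (2612 bp), at Txnrd1, a thioredoxin reductase gene (2366 bp), and at Bad with Plcb3 (2328 bp). Starts of 2 or more genes lay in 127 wide regions, and a divergent pair with starts within 1000 bp lay in 97 (10.4% of the 937), against 508 (8.20% of 6196) of the narrower regions with a start.

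In the 601 wide regions that held 1 start and reached no other gene, the region extended 708 bp upstream (quartiles 429 and 977 bp) and 1062 bp downstream (quartiles 780 and 1324 bp) at the median. The region reached farther downstream than upstream in 406 of them (67.6%). In 4297 narrower regions of the same kind the medians were 366 bp upstream and 531 bp downstream, and 68.8% reached farther downstream. The wide regions reached farther on both sides of the start, which a rule on width favours, and nearly the same share leaned into the gene.

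Peak calls were followed along the distance from the start. At the start itself a peak was called in 94.7% and 95.8% of the 601 regions in the Dicer1S2D tumours and in 97.0% and 98.8% in the KrasLA1 tumours. At 500 bp downstream the shares were 66.2% and 68.2% in the Dicer1S2D tumours, against 78.4% and 87.4% in the KrasLA1 tumours (mean difference -15.6 percentage points). At 500 bp upstream they were 53.1% and 55.4% in the Dicer1S2D tumours and 55.1% and 66.4% in the KrasLA1 tumours. Both Dicer1S2D libraries lay below both KrasLA1 libraries at 500 bp downstream but not at 500 bp upstream, positions chosen after the profile was seen. At 1000 bp downstream the shares were 32.9% and 28.6% in the Dicer1S2D tumours and 33.6% and 48.9% in the KrasLA1 tumours. In the narrower regions, 37.2% and 33.5% of the Dicer1S2D tumours' regions had a peak at 500 bp downstream, against 43.0% and 46.9% in the KrasLA1 tumours. At 500 bp upstream of the narrower regions' starts the shares were 18.5% and 18.2% in the Dicer1S2D tumours, against 19.4% and 23.8% in the KrasLA1 tumours, so that there the groups did not overlap on either side of the start.

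**Figure D3:**
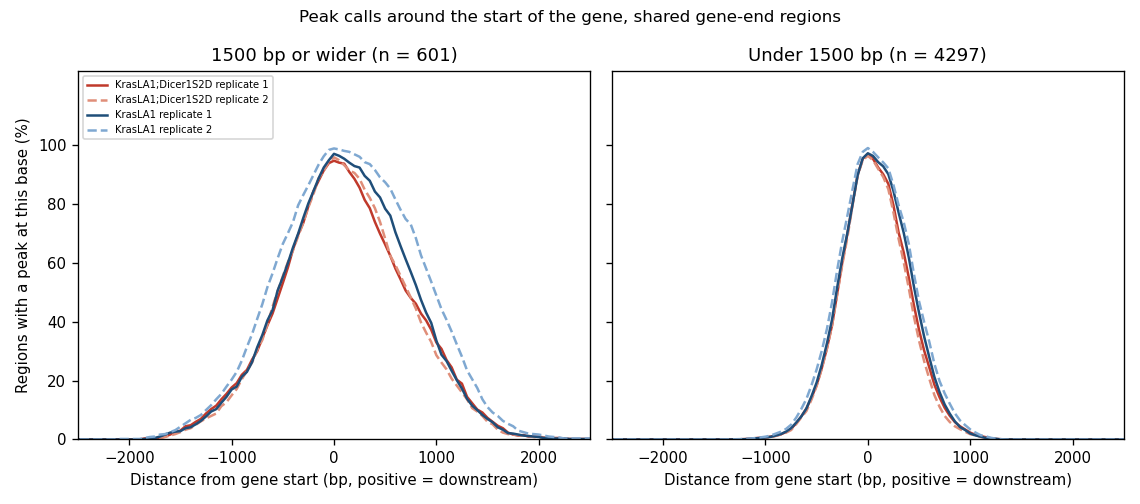
Share of regions with a peak (%) at each distance from the gene start (bp, positive values downstream) in 601 wide and 4297 narrower regions with 1 start, by library. At 500 bp downstream of the start in wide regions the Dicer1S2D libraries stand at 66.2% and 68.2% and the KrasLA1 libraries at 78.4% and 87.4%.

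Covered width was compared between genotypes region by region with limma, on log2 covered bases after subtracting each library's median over all shared regions, with Benjamini-Hochberg adjustment over 26402 regions. No wide region passed an adjusted p of 0.05 in either direction, and over all shared regions 0% were called wider and 0% narrower in Dicer1S2D tumours (smallest adjusted p 0.999). At an unadjusted p under 0.05, 1 wide region was wider in Dicer1S2D tumours and 27 (2.13%) were narrower, against 0.845% and 2.07% of all shared regions. The median log2 difference of the wide regions was -0.01 (quartiles -0.20 and 0.13) and that of all shared regions 0.04. Differences were below 0 in 658 wide regions (51.9%) and in 43.5% of all shared regions. With no centring, which moves the median of all regions to -0.13, 72 wide regions (5.68%) were narrower and 0 wider at an unadjusted p under 0.05, against 3.98% and 0.227% of all shared regions. After centring, the groups did not overlap in 217 wide regions (17.1%) that were narrower in Dicer1S2D tumours, with a background of 10.8%, and in 173 (13.7%) that were wider, with a background of 16.9%. A region passes the minimum of 1500 bp more readily where KrasLA1 replicate 2 is wide, so the choice of regions bears on these shares and nothing is read from them.

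The wide region with the most negative log2 difference lay at Pef1, a calcium-binding protein gene (1578 bp), where covered bases were 228 and 581 in the Dicer1S2D tumours, against 920 and 1578 in the KrasLA1 tumours (log2 difference -1.56, and -0.83 without Dicer1S2D replicate 1). Next was the region of Lrg1, a secreted glycoprotein gene, and Sema6b, a semaphorin gene, with 294 and 314 bp in the Dicer1S2D tumours against 417 and 2290 bp in the KrasLA1 tumours (log2 difference -1.52). The groups did not overlap at either, but the size of the difference at Lrg1 came largely from KrasLA1 replicate 2 and was -0.41 without it and -2.63 without KrasLA1 replicate 1.

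At the immediate-early gene Ier2 the narrower of its wide regions (chr8:84663974-84665487) had 253 and 466 bp covered in the Dicer1S2D tumours, against 771 and 1514 bp in the KrasLA1 tumours (log2 difference -1.49, and -0.99 without Dicer1S2D replicate 1). Its other wide region (chr8:84661263-84663073) had 777 and 878 bp in the Dicer1S2D tumours, against 1409 and 1466 bp in the KrasLA1 tumours. Both regions of Ier2 were narrower in each Dicer1S2D tumour than in either KrasLA1 tumour. Efemp2, which encodes a protein of elastic fibres, had 338 and 631 bp in the Dicer1S2D tumours against 1185 and 1598 bp in the KrasLA1 tumours (log2 difference -1.41, and -0.90 without Dicer1S2D replicate 1). Hap1, the gene of huntingtin-associated protein, had 1002 and 360 bp in the Dicer1S2D tumours against 1676 and 1520 bp in the KrasLA1 tumours (log2 difference -1.25, and -0.57 without Dicer1S2D replicate 2 or -1.92 without replicate 1). None of these passed adjustment in limma.

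The largest positive differences rested on KrasLA1 replicate 1. Bach2, a transcription repressor gene known from lymphocytes, had 1315 and 955 bp covered in the Dicer1S2D tumours and 198 and 1684 bp in the KrasLA1 tumours (log2 difference 1.12). Rab6b, a vesicle transport GTPase gene, had 1309 and 1460 bp in the Dicer1S2D tumours and 288 and 2089 bp in the KrasLA1 tumours (log2 difference 1.0). Vmp1, an autophagy gene, had 1148 and 1189 bp in the Dicer1S2D tumours and 295 and 1641 bp in the KrasLA1 tumours (log2 difference 0.91). At each of these 3 genes KrasLA1 replicate 2 was the widest library and replicate 1 the narrowest, and without KrasLA1 replicate 1 the log2 difference was -0.30 at Bach2, -0.31 at Rab6b and -0.21 at Vmp1. Dgkh, a diacylglycerol kinase gene, had 1227 and 1294 bp in the Dicer1S2D tumours and 446 and 1506 bp in the KrasLA1 tumours (log2 difference 0.79, and 0.03 without KrasLA1 replicate 1). Cplx2, a complexin gene, had 1552 and 1300 bp in the Dicer1S2D tumours and 623 and 1440 bp in the KrasLA1 tumours (log2 difference 0.75, and 0.26 at the lowest when 1 library was left out).

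Among the 20 widest regions, the log2 difference was -0.95 at Gadd45g (SE 0.24), and it was -0.89 at Gprc5a (SE 0.21). It was -0.49 at Nkx2-1 and -0.46 at Jun. With 1 library left out in turn, the difference stayed between -1.15 and -0.74 at Gadd45g, between -1.0 and -0.78 at Gprc5a, between -0.60 and -0.37 at Nkx2-1 and between -0.73 and -0.19 at Jun. These 4 genes were picked from the widest regions after their values were seen, so no p is given for them.

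Gene lists were read against the 7.44% of autosomal protein-coding genes that had a wide region, or 5.0% (1033 genes) in the regions rebuilt without KrasLA1 replicate 2. In the stricter group, with a peak of 1500 bp or more in each library, that share was 0.958% and no list held more than 2 genes. The stricter group held 1 of 20 immediate-early and AP-1 genes (Jun) and 1 of 15 MAPK feedback and ETV genes (Spred1). It held 0 of 18 alveolar type 2 genes and 0 of 29 Notch and TGF-beta pathway genes. Of 20 immediate-early and AP-1 genes, which growth signals switch on within minutes, 10 had a wide region, and 7 without KrasLA1 replicate 2. They were Atf3, Btg2, Dusp1, Egr1, Egr2, Fosl2, Ier2, Ier5, Jun and Jund, with 11 regions between them and a median width of 1778 bp. Their median log2 difference was -0.35, and 9 of the 11 regions had a difference below 0, beside 51.9% of the wide regions, with 0 of 11 called in limma in either direction. The regions at Atf3, Btg2 and Ier2 were not wide without KrasLA1 replicate 2, so the choice of regions bears on these signs and nothing is read from them. The groups overlapped at Egr2 (2583 bp), with 1753 and 1413 bp covered in the Dicer1S2D tumours and 1980 and 1372 bp in the KrasLA1 tumours. They also overlapped at Btg2 (2278 bp), with 707 and 1170 bp in the Dicer1S2D tumours and 758 and 2278 bp in the KrasLA1 tumours. At Egr1, a zinc finger factor gene, covered bases were 1333 and 1460 in the Dicer1S2D tumours and 1806 and 1786 in the KrasLA1 tumours. After centring, the groups overlapped at Egr1 as well (log2 difference -0.20). At Jund, whose region also reaches Iqcn, covered bases were 856 and 874 in the Dicer1S2D tumours, against 1695 and 1440 in the KrasLA1 tumours. At Dusp1, a MAP kinase phosphatase gene, the groups overlapped, with 1598 and 1196 in the Dicer1S2D tumours and 1419 and 1362 in the KrasLA1 tumours.

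Of 15 MAPK feedback and ETV genes, which damp or carry the RAS signal, 7 had a wide region, and 5 without KrasLA1 replicate 2. They were Ccnd1, Dusp4, Dusp6, Epha2, Etv1, Spred1 and Spry4, with a median width of 2207 bp and a median log2 difference of -0.14. At Dusp6, the ERK phosphatase gene, peaks covered 1551 and 1891 bp in the Dicer1S2D tumours, against 2209 and 2479 bp in the KrasLA1 tumours. At Ccnd1, which encodes cyclin D1, they covered 1277 and 1326 bp in the Dicer1S2D tumours, against 1782 and 1922 bp in the KrasLA1 tumours. At Dusp4, another phosphatase gene of the family, the groups overlapped, with 1725 and 1600 bp in the Dicer1S2D tumours and 1385 and 2163 bp in the KrasLA1 tumours. The 15 genes all had a peak at an end in every library.

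Of 18 alveolar type 2 genes, 6 had a wide region, and 1 without KrasLA1 replicate 2. They were Cd74, Fasn, Lamp3, Nkx2-1, Sftpb and Slc34a2. At Sftpb, the surfactant protein B gene, peaks covered 1141 and 1346 bp in the Dicer1S2D tumours and 1169 and 1546 bp in the KrasLA1 tumours. At Slc34a2, a phosphate transporter gene of these cells, they covered 1263 and 929 bp in the Dicer1S2D tumours and 1001 and 1853 bp in the KrasLA1 tumours. Of these 18 genes, 18 and 18 had a peak at an end in the Dicer1S2D tumours and 16 and 18 in the KrasLA1 tumours. Of 12 alveolar type 1 genes, 2 had a wide region (Cav1 and Emp2), and 1 without KrasLA1 replicate 2. Of 12 airway genes, Scgb1a1, the club cell secretoglobin, had a wide region of 1649 bp with 947 and 1160 bp covered in the Dicer1S2D tumours, against 1363 and 1649 bp in the KrasLA1 tumours.

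Transcription factor families other than the HOX genes held wide regions at 2 to 7 genes each. Of 25 KLF and SP factors, 7 had a wide region (5 without KrasLA1 replicate 2), led by Klf13 with 2112 and 2350 bp covered in the Dicer1S2D tumours and 2411 and 2510 bp in the KrasLA1 tumours. Of 23 forkhead factors 5 had one (4 without that library), of 21 C/EBP, RUNX, GATA and T-box factors 5 (3 without), of 20 ETS and Grainyhead factors 4 (3 without) and of 18 SOX factors 2 (2 without). At Grhl2, an epithelial Grainyhead factor, peaks covered 1756 and 1558 bp in the Dicer1S2D tumours, against 1992 and 2720 bp in the KrasLA1 tumours. At Cebpa, a factor of alveolar differentiation, they covered 1249 and 1333 bp in the Dicer1S2D tumours, against 1721 and 1697 bp in the KrasLA1 tumours. Of 39 HOX genes 0 had a wide region, and 1, 1, 2 and 6 of them had a peak at an end in Dicer1S2D replicates 1 and 2 and KrasLA1 replicates 1 and 2.

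Of 29 Notch and TGF-beta pathway genes, 6 had a wide region (1 without KrasLA1 replicate 2). At Tgfbr2, a TGF-beta receptor gene, covered bases were 1481 and 1401 in the Dicer1S2D tumours and 1421 and 1819 in the KrasLA1 tumours. Of 29 chromatin and Polycomb regulators 5 had one (4 without that library), of 20 heat-shock and stress genes 6 (6 without) and of 16 housekeeping genes 5 (3 without). At Gapdh, a glycolysis gene whose region also reaches Ncapd2, peaks covered 1363 and 1350 bp in the Dicer1S2D tumours, against 2131 and 2246 bp in the KrasLA1 tumours. At Eef1a1, a translation factor gene, they covered 1625 and 1481 bp in the Dicer1S2D tumours and 1565 and 1700 bp in the KrasLA1 tumours. Of 44 ribosomal protein genes, 2 had a wide region (Rpl7 and Rps12, and 1 gene without KrasLA1 replicate 2), although between 39 and 40 of them had a peak at an end in each library.

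Of 15 genes of the microRNA machinery, which Dicer1 serves, 2 had a wide region and 0 without KrasLA1 replicate 2. At Prkra, a Dicer partner gene whose region also reaches Pjvk, covered bases were 1237 and 1078 in the Dicer1S2D tumours and 1298 and 1659 in the KrasLA1 tumours. At Tnrc6c, which encodes a silencing partner of Argonaute, they were 1074 and 1424 in the Dicer1S2D tumours and 1320 and 1543 in the KrasLA1 tumours. Of 12 endothelial, 14 myeloid, 14 lymphocyte and 12 fibroblast and smooth muscle genes, 0 had a wide region with or without KrasLA1 replicate 2. Endothelial genes with a peak at an end numbered 3 and 3 in the Dicer1S2D tumours and 4 and 4 in the KrasLA1 tumours, and fibroblast and smooth muscle genes 2 and 1 in the Dicer1S2D tumours and 2 and 2 in the KrasLA1 tumours.

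**Figure D4:**
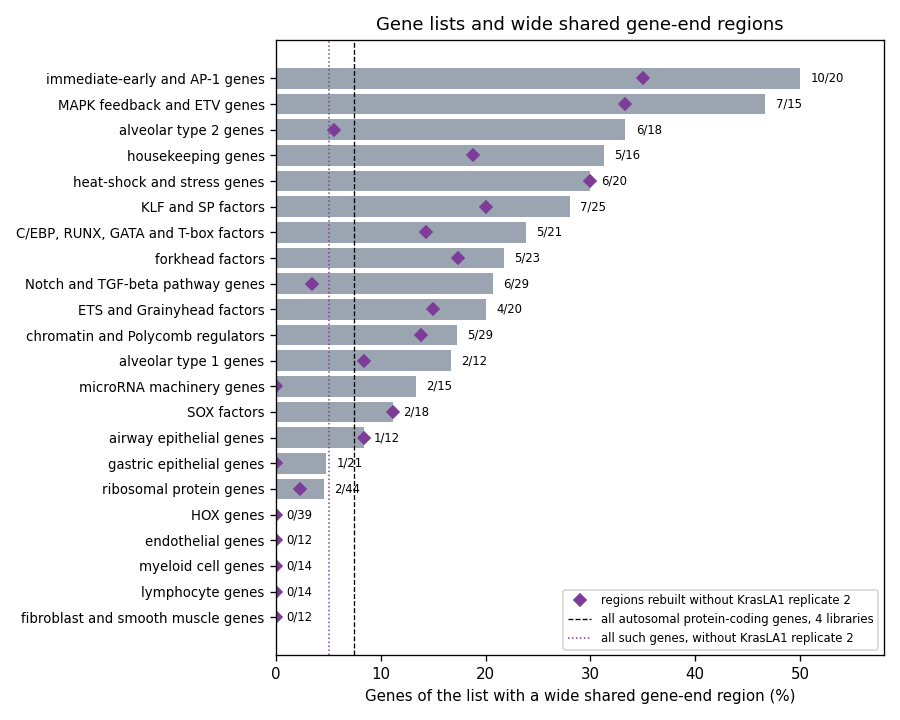
Share of the genes of each list with a wide region (%, bars, with counts), with the share in regions rebuilt without KrasLA1 replicate 2 (diamonds). Of 20 immediate-early and AP-1 genes 10 had a wide region and 7 without that library, beside 7.44% and 5.0% of autosomal protein-coding genes (dashed and dotted lines).

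Genes fixed for their role in the study were looked up one by one. Gata6, a lung and gastric factor, had a wide region of 1975 bp with 1158 and 1223 bp covered in the Dicer1S2D tumours and 1244 and 1923 bp in the KrasLA1 tumours. The region at Dicer1 was 1269 bp and so too narrow, with 1235 and 992 bp in the Dicer1S2D tumours and 1218 and 1175 bp in the KrasLA1 tumours. Peak positions cannot show whether the S2D allele is present. Nkx2-1 had a further shared region of 1214 bp. The shared regions at Foxa2, a partner of NKX2-1, were 1489 and 658 bp wide, and Hnf4a, a gastric and liver factor, had no shared region at an end.

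Promoters whose start lay in a wide region were rich in GC. The RefSeq table matched 1251 (81.4%) of the 1537 genes, and 1064 promoters had their start inside a wide region. Their median GC content was 66.0%, against 62.0% for 6750 promoters in narrower regions and 56.7% for 16457 autosomal promoters. The observed over expected ratio of CpG was 0.844 at the median in wide regions, 0.799 in narrower regions and 0.586 over all promoters. Promoters with a GC content of at least 50% and a CpG ratio of at least 0.6 made up 81.1% in wide regions, 77.2% in narrower regions and 46.5% of all. By width the share was 82.8% in regions of 1000 to under 1500 bp, 83.0% in those of 1500 to under 2000 bp and 73.7% in those of 2000 bp or more, so that it did not go on rising with width.

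Motifs were searched as exact letters on both strands of the 300 bases. GGGCGG was found in 77.3% of promoters in wide regions, 70.3% in narrower regions and 46.8% of all promoters. CCGGAAGT, a motif of ETS factors, was found in 4.23% in wide regions, 10.9% in narrower regions and 5.35% of all. TATAAA was found in 5.83%, 5.97% and 13.5% in the same order, and CCAAT, which needs only 5 letters, in 36.3%, 39.7% and 38.9%. The AP-1 motif TGANTCA was found in 4.32% in wide regions, 4.34% in narrower regions and 7.13% of all promoters, and the CREB motif TGACGTCA in 3.85%, 3.88% and 2.28%. The palindromic motif of NRF1 was found in 1.32%, 2.61% and 1.34%. A match is a string of letters and not a bound site, and promoters were not matched for GC content.

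**Figure D5:**
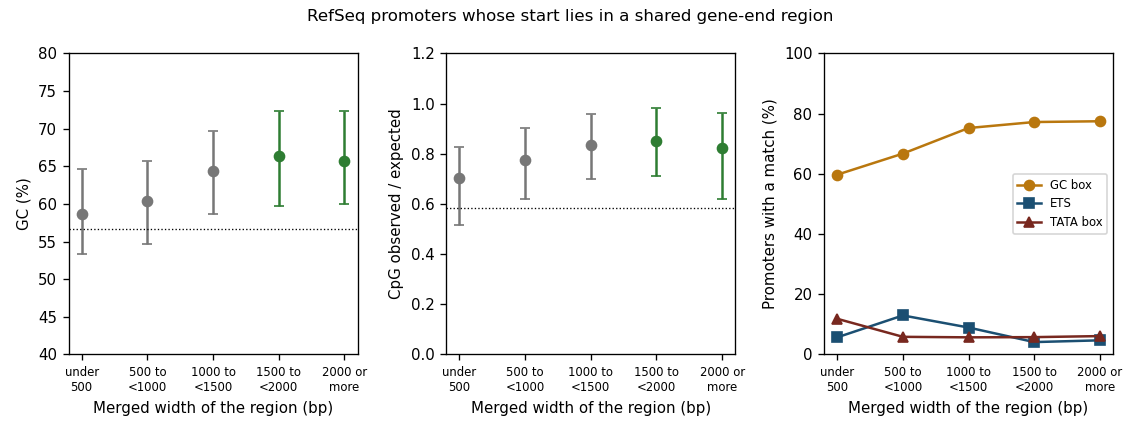
Median GC content (%) and CpG observed over expected of promoters by the merged width of the region that holds the start (bars are quartiles, dotted lines the median of all autosomal promoters), and the share of promoters with a GC box, ETS or TATA box match (%). Promoters in regions of 1500 bp or more (green) had a median GC content of 66.0% and held GGGCGG in 77.3%.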

How the data were processed

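ATAC-seq peaks of 4 mouse lung tumour libraries were analysed, 2 KrasLA1;Dicer1S2D and 2 KrasLA1, grouped by the labels. Shared litters or handling days are not recorded in the labels, so p-values measure the spread between these samples. The deposited data are the authors' 5 interval tracks, as start and end positions on mm10, per the file headers: the peaks of each library, called separately, and merged regions. It gives no count, score or height, so the depth of each library is unknown, no interval or limit from depth can be given, and no count test was possible. MACS3 3.0.0, BWA 0.7.12 and deepTools 3.5.1 appear in the submitters' processing notes. Settings, filters and any shift of reads are not stated there. Columns of other samples numbered 0.

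Covered bases are the bases of a region inside a library's peaks. Gene ends came from the RefSeq GRCm38.p6 gene table and starts and strands from its promoter table, which did not cover every gene. limma 3.58.1 in R 4.3.3 was run on log2 covered bases as described, after it was tested on simulated data, and other values were computed in Python 3.11.15 with numpy 2.4.6 and scipy 1.17.1. Coordinates count from 1.

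Regions, gene lists and tests were chosen with earlier results of these data known, so no list is independent support. Named genes are those of the 20 widest regions, up to 4 per list with the widest regions, the 5 regions on either side of 1500 bp, the 5 largest differences in each direction, the 5 regions with most genes, and Dicer1, Nkx2-1, Hnf4a, Foxa2 and Gata6. Some named results are not reported here. Outside this rule, genes with several regions, genes with a peak of 1500 bp or more in each library, regions at a finish and all genes of a list that had a wide region were named after their values were seen. Alternatives to the width, window, overlap, peaks, libraries, centring and design were tried.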

Additional observations from a re-analysis of the deposited data

Results flagged for a closer look

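Replicate 1 (female mice) and replicate 2 (male mice) gave opposite directions for some differences between Dicer1S2D and KrasLA1 tumours, and whether the directions differ beyond chance was not tested. Over all shared autosomal regions, the median covered width differed by 6 bp in replicate 1 and by -151 bp in replicate 2. The ratio of the median of the wide regions to that of all shared regions differed by -0.173 in replicate 1 and by 0.123 in replicate 2. The log2 width difference was 1.95 in replicate 1 and -0.12 in replicate 2 at Vmp1, 2.17 and -0.17 at Rab6b, and 2.72 and -0.48 at Bach2. On the X chromosome, which the autosomal rule leaves out, 20 regions met the other conditions.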

How the results depend on the processing

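The number of wide regions was 4914 with a minimum of 1000 bp, 248 with 2000 bp, 220 where every library had to cover 1500 bp, and 844 to 1238 with 1 library left out, the lowest without KrasLA1 replicate 2, when 67.1% of the 1537 genes kept a wide region. Other windows, overlaps and peak sets gave 1215 to 1364. Calls by genotype in limma stayed at 0 under every alternative run. Replicate numbers are shared between genotypes but no label says they pair animals, and deviations of same-numbered libraries correlated at 0.12, with 2 pairs. Replicate 1 was female and replicate 2 male, so the replicate block is also a block for sex, which the main fit left out. With the replicate block in limma, 0 regions were called (smallest adjusted p 0.505, against 0.999 in the main fit). At an unadjusted p under 0.05, 3 wide regions (0.237%) were wider and 39 (3.08%) narrower in Dicer1S2D tumours, against 1.63% and 2.89% of all shared regions. With 1 library left out, where a lone sample is assumed to vary like the other genotype, 0 were called. The difference in median covered width ran between -262 and -107 bp. The log2 difference reversed without KrasLA1 replicate 1 at Vmp1 (range -0.21 to 2.03), Rab6b (-0.31 to 2.31) and Bach2 (-0.30 to 2.55), and the cause was not tested. The share of GC- and CpG-rich promoters was 72.3% over genes with any end in reach, which adds promoters outside the regions. With no heights or read counts, a narrow peak and a shallow library cannot be told apart. Without KrasLA1 replicate 2, an alternative chosen after seeing the data, list counts fell or kept their value, and 63.6% of wide regions had 1 peak in every library.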
